A study of Mus musculus with 12 samples.

Results

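R-spondins are secreted proteins that strengthen canonical Wnt signalling, and the leucine-rich receptors Lgr4, Lgr5 and Lgr6 are their high-affinity receptors. An R-spondin bound to an Lgr draws the membrane ubiquitin ligases Rnf43 and Znrf3 away from Frizzled receptors, so that Frizzled and its co-receptors stay at the cell surface and respond more strongly to Wnt ligands. Rnf43, Znrf3 and, in many tissues, Lgr5 are themselves targets of β-catenin, which makes this module both an input and an output of the pathway. All 4 R-spondin genes (Rspo1 to Rspo4) and all 3 receptor genes (Lgr4 to Lgr6) were taken by their symbols in the platform annotation, which gave 7 of the 18194 genes measured and 12 probe sets of 45101.

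The arrays measured total RNA of mouse spinal cord from Olig2cre/DA-Cat mice and their wild-type littermates, with 3 biological replicates in each of 4 groups, 1 for either genotype at day 4 and at day 15. Olig2cre places Cre recombinase in cells that use Olig2, which oligodendrocyte lineage cells and motor neuron progenitors need, and DA-Cat stands for dominant-active β-catenin, which keeps Wnt signalling on without a ligand. No group carried Cre alone, so Cre and DA-Cat cannot be told apart in any genotype difference. Every sample, wild type included, is described as ventrolateral white matter injected with 1% lysolecithin, a detergent that strips myelin. The labels give day as a developmental stage, whereas their protocol tells of mice aged 8 to 10 weeks and of cords taken unlesioned or 14 days after the lesion, so the labels do not settle what days 4 and 15 count from. Nor do they give the number of animals behind a sample, and p-values measure the spread between these samples.

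Values are log2 signals, where a difference of 1 is a doubling; errors are the SD over 3 arrays for a level and the SE of the fit for a difference. Array medians lay between 6.14 and 6.19, and 15 Bacillus control probe sets, taken here as a guide to background, had a median of 3.07 and a 95th percentile of 5.16. The neuron markers had a mean level of at least 12.65 on every array, whereas the source is labelled as white matter. Olig2 was lower in Olig2cre/DA-Cat, with a difference of -0.90 ± 0.10 (SE, adjusted p = 0.000171) at day 4 and of -0.44 ± 0.10 (SE, adjusted p = 0.0278) at day 15, and Ctnnb1, the β-catenin gene, differed by -0.054 and -0.066 without passing the threshold. Of 7 oligodendrocyte markers measured, 7 were lower at day 4 (median -2.64) and 5 at day 15 (median -0.53), and of 6 precursor markers 4 and 1 (median -0.68 and -0.15). Of 9 markers of ependyma and floor or roof plate, 1 was higher at day 4 and 3 on average over the days, and of 5 Schwann cell markers 1 was higher at day 15 (median 0.51) and 2 on average. Of 7 neuron markers 2 were higher on average (median 0.076). Among 7 astrocyte markers 1 was lower at day 4 (median -0.12), and among 6 of cartilage and bone 1 was lower on average (median -0.024). Of all 18194 genes, 237 were higher and 330 lower at day 4, 112 and 421 at day 15, and 763 and 749 on average. A single marker called is not read as a change of its cell type. The part of these cell types in the differences of the 7 genes was not tested. In whole-tissue RNA, fewer cells of a type and less RNA per cell cannot be told apart. Skeletal muscle markers varied widely within groups, with a mean level of 11.23, 5.87 and 9.09 on the Olig2cre/DA-Cat arrays of day 15 and of 6.97, 5.76 and 7.85 on those of wild type, and meningeal and fibroblast markers were at 9.54 to 10.01 and 8.72 to 9.85 on the same arrays.

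Of the 7 genes, 3, namely Rspo3, Lgr6 and Lgr5, were higher in Olig2cre/DA-Cat. At day 4, Rspo3 and Lgr6 passed the threshold (2 of 7 members higher, against 1.3% of all genes), and at day 15 Lgr5 joined them (3 of 7 higher, against 0.616% of all genes). On average over both days the same 3 of 7 were higher, where 4.19% of all genes were. The median difference over the 7 genes was 0.063 at day 4 and 0.18 at day 15, beside 0.029 and 0.017 over all genes. No member was lower past the threshold in limma's test at either day, and none was lower at an unadjusted p under 0.05; the members past an unadjusted 0.05 were the same in number as those called, 2 at day 4 and 3 at day 15.

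**Figure D1:**
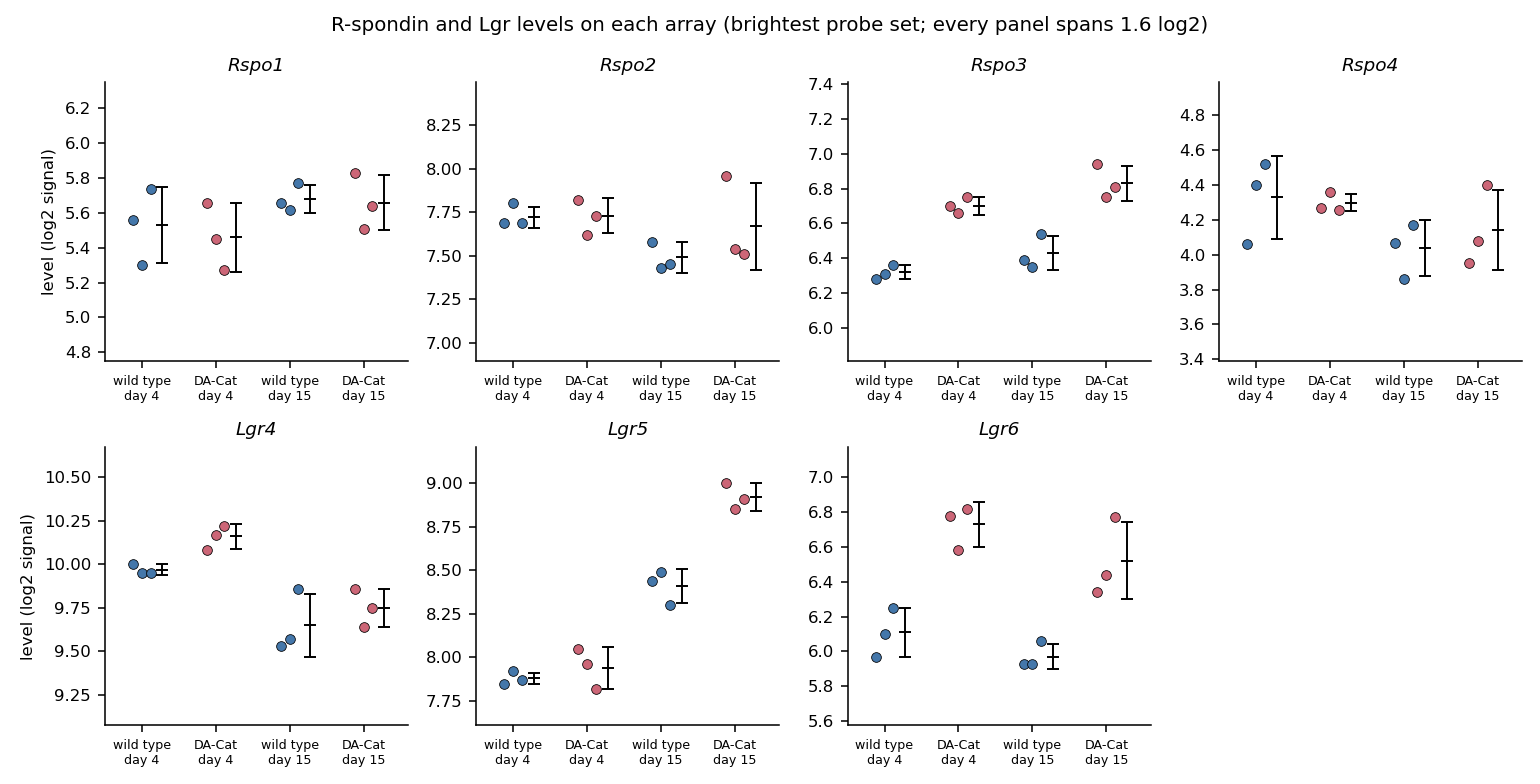
Level (log2 signal) of the 7 genes on each of the 12 arrays; points are arrays, bars are the mean ± SD of 3, blue is wild type and red Olig2cre/DA-Cat, and each panel spans the same log2 range with its own centre. The red points of Rspo3 and Lgr6 lie over the blue points at both days and those of Lgr5 at day 15. Those of Lgr4 do so by a small gap at day 4, where it was not called, and Lgr4 is lower at day 15 than at day 4 in both genotypes.

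Among the ligands, Rspo3, which in other tissues serves vessels and stem cell niches, was the gene whose genotypes were parted at both days. On its brighter probe set (1455607_at), the level at day 4 was 6.28, 6.31 and 6.36 in wild type and 6.70, 6.66 and 6.75 in Olig2cre/DA-Cat. The day 15 levels were 6.39, 6.35 and 6.54 in wild type and 6.94, 6.75 and 6.81 in Olig2cre/DA-Cat. Every Olig2cre/DA-Cat array was over every wild-type array of either day, and the replicates of a group lay within a narrow band. The difference was 0.39 ± 0.07 at day 4 (SE, 1.31-fold, 95% interval 0.23 to 0.54, adjusted p = 0.00966) and 0.41 ± 0.07 at day 15 (SE, 1.33-fold, 95% interval 0.26 to 0.56, adjusted p = 0.00698). The difference of these differences was 0.022, with an interval from -0.19 to 0.23 (adjusted p = 0.963). Between the days Rspo3 differed by 0.11 in wild type (adjusted p = 0.232) and by 0.13 in Olig2cre/DA-Cat (adjusted p = 0.143).

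The day 4 call of Rspo3 was lost without wild type replicate 1 (0.37, adjusted p = 0.0524) or without Olig2cre/DA-Cat replicate 3 (0.36, adjusted p = 0.0569), and with its probe sets averaged (0.20, adjusted p = 0.0952). That of day 15 was lost with the meningeal and fibroblast level of each array as a covariate (0.34, adjusted p = 0.082) and in a fit of the day 15 arrays alone (0.41, adjusted p = 0.0855). The average over both days, 0.40 ± 0.05 (SE, adjusted p = 0.000378), stayed called in 22 of 22 alternative settings that included the gene. Fibroblasts and endothelium are known sources of Rspo3; 0 of 8 meningeal and fibroblast markers passed in a genotype contrast (median 0.26 at day 4 and 0.70 at day 15), and 0 of 7 endothelial markers did (median 0.06 and 0.15), with 0 of 15 of these markers below the background guide. With the meningeal and fibroblast covariate Rspo3 stayed called at day 4 (0.36, adjusted p = 0.0205) and on average (0.35, adjusted p = 0.00806). Beyond that covariate, the part of these cells in the Rspo3 difference was not tested. The dimmer Rspo3 probe set (1443187_at) stayed between 4.66 and 5.03 on all arrays, under the background guide, and differed by 0.016 at day 4 and 0.13 at day 15 (adjusted p = 0.959 and 0.63 over all probe sets).

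The other 3 ligands were not told apart between genotypes. Rspo2, an R-spondin of developing limb, lung and muscle, was at 7.69, 7.80 and 7.69 in wild type and 7.82, 7.62 and 7.73 in Olig2cre/DA-Cat at day 4; they differed by 0.003 with an interval from -0.23 to 0.24. Day 15 levels were 7.58, 7.43 and 7.45 in wild type and 7.96, 7.54 and 7.51 in Olig2cre/DA-Cat, which differed by 0.18 (interval -0.051 to 0.42, adjusted p = 0.424). One array, Olig2cre/DA-Cat replicate 1, stood over the other 5 of that day; it was also the array with the highest muscle marker level, 11.23, and without it the difference was 0.039 (adjusted p = 0.864). Muscle carried over with the cord as a part of that value was not tested beyond this and the muscle covariate, with which the difference was 0.11 (adjusted p = 0.743).

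Rspo1, the R-spondin of the embryonic dorsal midline and of the ovary, lay between 5.27 and 5.83 on all 12 arrays, and its groups overlapped in both genotype contrasts. It differed by -0.071 at day 4 (interval -0.34 to 0.20) and by -0.021 at day 15 (interval -0.29 to 0.25). Rspo4, the R-spondin of nail formation, lay between 3.86 and 4.52, under the background guide on every array, so its differences of -0.033 and 0.11 say little about the gene (interval -0.32 to 0.26 at day 4, and -0.18 to 0.39 at day 15).

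Among the receptors, Lgr6, a marker of stem cells in skin appendages, differed between the genotypes at both days. On its brighter probe set (1436218_at) the level at day 4 was 5.97, 6.10 and 6.25 in wild type and 6.78, 6.58 and 6.82 in Olig2cre/DA-Cat. At day 15 it was 5.93, 5.93 and 6.06 in wild type and 6.34, 6.44 and 6.77 in Olig2cre/DA-Cat. The genotypes did not overlap at either day, and Olig2cre/DA-Cat replicate 3 was the highest of the day 15 arrays. The difference was 0.62 ± 0.11 at day 4 (SE, 1.54-fold, interval 0.38 to 0.86, adjusted p = 0.00941) and 0.54 ± 0.11 at day 15 (SE, 1.46-fold, interval 0.30 to 0.78, adjusted p = 0.0192). The effect differed between days by -0.075 (interval -0.41 to 0.27, adjusted p = 0.911), and Lgr6 differed between the days by -0.14 in wild type (adjusted p = 0.361) and -0.21 in Olig2cre/DA-Cat (adjusted p = 0.141).

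At day 4 the Lgr6 call was lost without wild type replicate 1 (0.55, adjusted p = 0.0555) or Olig2cre/DA-Cat replicate 3 (0.57, adjusted p = 0.054), and with its probe sets averaged (0.28, adjusted p = 0.0936). The day 15 call was lost without wild type replicate 1 (0.52, adjusted p = 0.0787), wild type replicate 2 (0.52, adjusted p = 0.0723) or Olig2cre/DA-Cat replicate 3 (0.42, adjusted p = 0.0643), with a muscle or meningeal covariate (0.56 and 0.55, adjusted p = 0.0538 and 0.0986), and in the day 15 arrays alone (0.54, adjusted p = 0.0981). The average over both days, 0.58 ± 0.08 (SE, adjusted p = 0.000739), stayed called in 22 of 22 alternative settings that included the gene. The other Lgr6 probe set (1427028_at), at 5.56 to 6.03, did not show the day 4 difference: its value was -0.061 (interval -0.30 to 0.17), outside the interval of the brighter probe set. At day 15 it differed by 0.20 (interval -0.031 to 0.44, adjusted p = 0.458 over all probe sets). Which transcripts each Lgr6 probe set reads was not analysed here.

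RefSeq's promoter table of GRCm38.p6 held 4 of the 7 members: Rspo1, Rspo4, Lgr4 and Lgr6. Rspo2, Rspo3 and Lgr5 were not in it. Lgr6 is shown because it changed with genotype, and Lgr4 as the receptor that passed the threshold between days and in no genotype contrast. Only bases upstream of the annotated gene are given, at chr1:135105375-135105526 (minus strand, 152 bases, 65.1% GC, 7 CpG) and chr2:109917397-109917646 (plus strand, 250 bases, 55.6% GC, 10 CpG), 5′ to 3′, with any CTTTG core of the TCF/LEF site on either strand in capitals.
Lgr6: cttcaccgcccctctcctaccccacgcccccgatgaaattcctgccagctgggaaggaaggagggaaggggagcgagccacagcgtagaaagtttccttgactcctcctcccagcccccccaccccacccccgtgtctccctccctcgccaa
Lgr4: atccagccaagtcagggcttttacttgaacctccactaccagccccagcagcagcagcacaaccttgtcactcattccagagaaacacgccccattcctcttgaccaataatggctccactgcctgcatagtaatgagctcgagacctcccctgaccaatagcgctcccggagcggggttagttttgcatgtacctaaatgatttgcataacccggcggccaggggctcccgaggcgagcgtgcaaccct
Neither stretch has a capital. In the whole windows, 250 bases before to 50 after the start, none of the 4 members held CTTTG or its reverse complement CAAAG, a core found in 53.9% of the 32851 promoters of the table. The longer forms CTTTGAT and CTTTGTT, which contain the core, were found on either strand in 3.73% and 5.85%. This says only that these letters are not in these windows.

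Lgr5, a receptor best known from intestinal stem cells and a β-catenin target there, changed with the day and, at day 15, with the genotype. On its brighter probe set (1450988_at), the level at day 4 was 7.85, 7.92 and 7.87 in wild type and 8.05, 7.96 and 7.82 in Olig2cre/DA-Cat. By day 15 the levels were 8.44, 8.49 and 8.30 in wild type and 9.00, 8.85 and 8.91 in Olig2cre/DA-Cat. The genotypes overlapped at day 4 and were apart at day 15, where all 6 arrays were over all 6 of day 4. The genotype difference was 0.063 ± 0.07 at day 4 (SE, interval -0.10 to 0.23, adjusted p = 0.669) and 0.51 ± 0.07 at day 15 (SE, 1.42-fold, interval 0.35 to 0.67, adjusted p = 0.00321).

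From day 4 to day 15 Lgr5 rose by 0.53 ± 0.07 in wild type (SE, 1.44-fold, adjusted p = 9.12e-05) and by 0.97 ± 0.07 in Olig2cre/DA-Cat (SE, 1.97-fold, adjusted p = 4.41e-07). The rises differed by 0.45 ± 0.11 (SE, interval 0.22 to 0.68), which had an unadjusted p = 0.00117 but did not pass over all genes (adjusted p = 0.125, and 0.0502 to 0.531 over 23 alternatives). In limma's test of this difference 0 of the 7 members passed, where 0.352% of all genes did, and Lgr5 was the 1 member past an unadjusted 0.05. In order of level, both genotypes of day 4 came lowest and were not told apart, then the day 15 wild types and last the day 15 Olig2cre/DA-Cat arrays. The day 15 call held without each array in turn and with either covariate, and was lost only, among 24 alternative settings, where both probe sets were averaged (0.24, adjusted p = 0.0743). The dimmer probe set (1444519_at) was at 3.91 to 4.19, under the background guide.

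Lgr4, the broadly expressed member of the receptor family, was the gene of the module that fell between the days. Its level (1433891_at) at day 4 was 10.00, 9.95 and 9.95 in wild type and 10.08, 10.17 and 10.22 in Olig2cre/DA-Cat. At day 15 it was 9.53, 9.57 and 9.86 in wild type and 9.86, 9.64 and 9.75 in Olig2cre/DA-Cat. All arrays of day 15 were lower than all of day 4, and the genotypes were apart by a small gap at day 4 and overlapped at day 15. It fell by 0.31 ± 0.09 in wild type (SE, adjusted p = 0.0116) and by 0.41 ± 0.09 in Olig2cre/DA-Cat (SE, adjusted p = 0.00209). The genotype difference was 0.19 ± 0.09 at day 4 (SE, interval -0.00035 to 0.38, adjusted p = 0.243) and 0.10 ± 0.09 at day 15 (SE, interval -0.093 to 0.29, adjusted p = 0.615).

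Within wild type at day 15, the array with the highest Lgr4 level, replicate 3, also had the highest meningeal and fibroblast level, 9.85 beside 8.72 and 8.93. In Olig2cre/DA-Cat at day 15, Lgr4 was highest on replicate 1 (9.86) and the meningeal and fibroblast level on replicate 2 (10.01). With the meningeal and fibroblast level as a covariate the Lgr4 difference between the days was -0.14 in wild type (adjusted p = 0.395), and the Olig2cre/DA-Cat fall was still called (-0.31, adjusted p = 0.0158). In wild type that level ran from 9.76 to 10.37 at day 4 and from 8.72 to 9.85 at day 15, so this fit cannot part it from the day. The share of all genes called between days in wild type went from 44.9% to 32.1% with it. Its part in the Lgr4 change was not tested. The call in wild type was also lost without wild type replicate 1 of day 15 (-0.25, adjusted p = 0.0553) and with averaged probe sets (-0.13, adjusted p = 0.0684). The dimmer Lgr4 probe set (1453765_at) lay between 3.68 and 4.08, under the background guide.

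Of the 7 genes, Lgr5 rose and Lgr4 fell in wild type, where 44.9% of all genes changed in either direction, and likewise in Olig2cre/DA-Cat, where 48.1% of all genes did. In wild type Rspo2 and Rspo4 were lower at day 15 by -0.24 (adjusted p = 0.0932) and -0.29 (adjusted p = 0.0935) without passing, and Rspo1 differed by 0.15 (adjusted p = 0.361). The genotype and day contrasts of a gene share their arrays and are given side by side only.

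**Figure D2:**
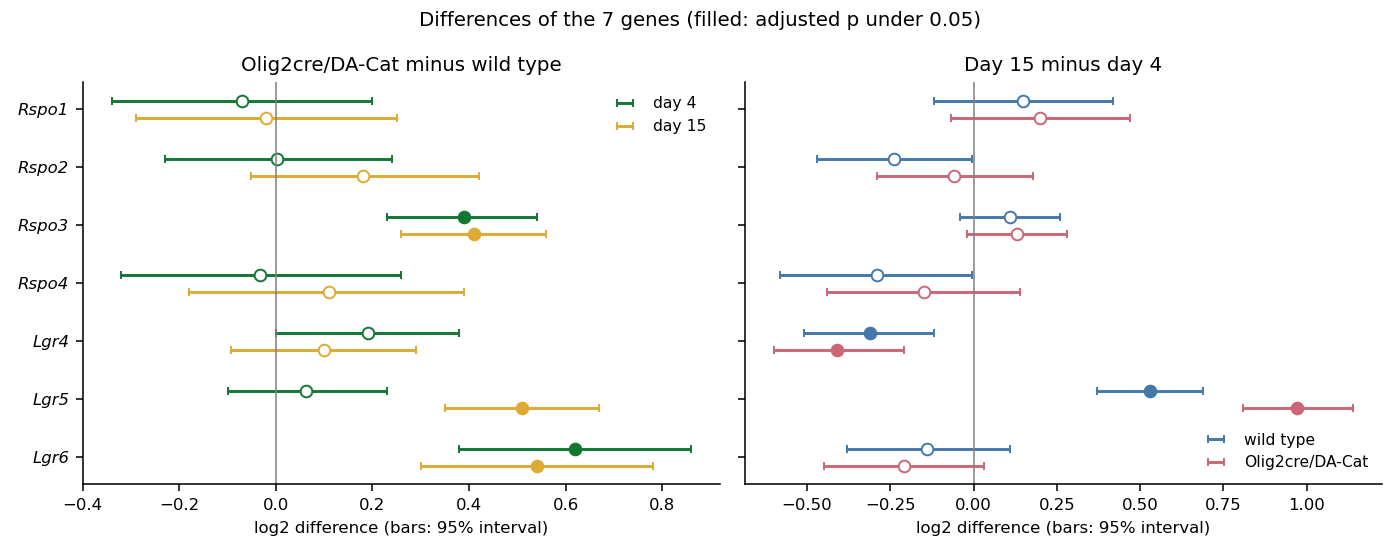
Log2 differences of the 7 genes with their 95% intervals from the limma fit, left between genotypes at day 4 (green) and day 15 (yellow), right between days in wild type (blue) and Olig2cre/DA-Cat (red); filled points passed an adjusted p of 0.05. Rspo3 and Lgr6 are filled at both days on the left, Lgr5 at day 15 alone, and on the right Lgr5 lies over 0 and Lgr4 under 0 in both genotypes.

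The 5 genes Rspo2, Rspo3, Lgr4, Lgr5 and Lgr6 had a second, dimmer probe set. None of these passed in a genotype contrast at day 4 or day 15, with differences between -0.15 and 0.20. Those of Rspo3, Lgr4 and Lgr5 were under the background guide on all 12 arrays. Those of Rspo2 (1430104_at, 5.51 to 5.84) and Lgr6 were a little over it. With all probe sets of a gene averaged, 0 of the 7 members passed at day 4, where 1.36% of all genes were higher. Under that rule the Lgr5 call was lost at day 15 (0.24, adjusted p = 0.0743) and on average (0.14, adjusted p = 0.0722). Those of Rspo3 and Lgr6 at day 15 and on average were kept. The share of all genes higher was then 0.566% at day 15 and 3.58% on average.

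**Figure D3:**
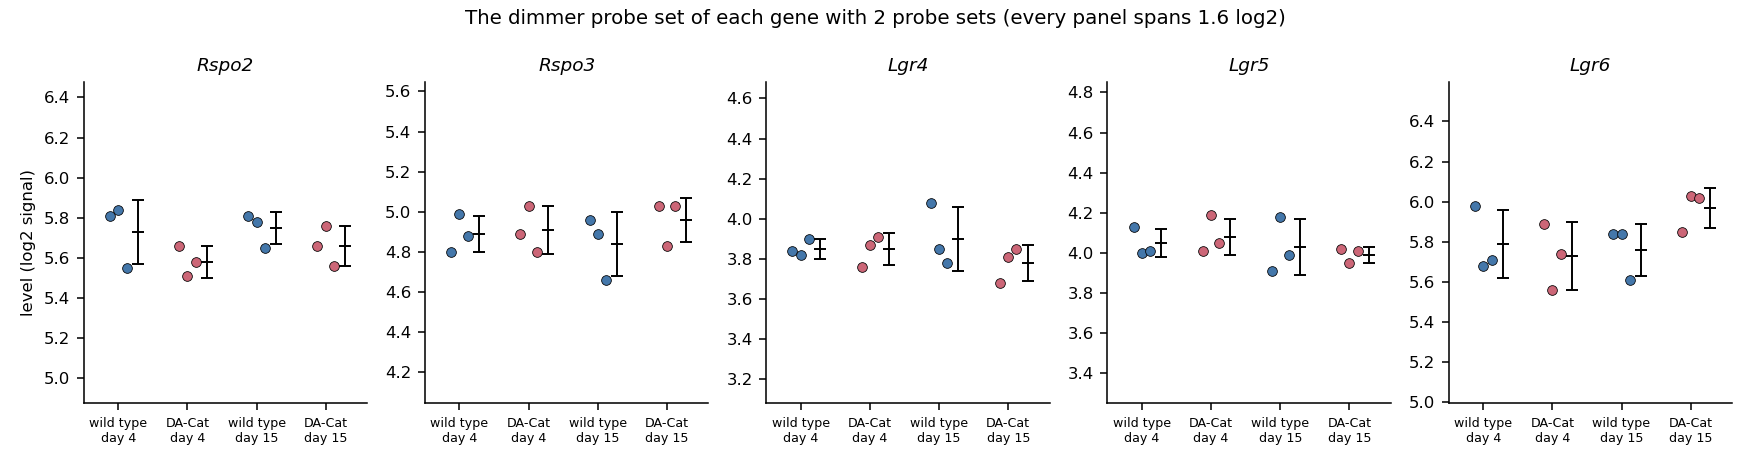
Level (log2 signal) of the dimmer probe set of the 5 genes that have 2, on the same scale span and with the same symbols as in the plot of gene levels. The groups of each gene overlap, apart from Lgr6 at day 15, where Olig2cre/DA-Cat (5.85 to 6.03) lay just over wild type (5.61 to 5.84).

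The genes through which R-spondins act were described from lists. Of all 18194 genes, 237 (1.3%) were higher and 330 lower in Olig2cre/DA-Cat at day 4, and 112 (0.616%) higher and 421 lower at day 15. Of 17 ubiquitin ligases, Frizzleds, co-receptors and Dishevelleds, 3 were higher and 0 lower in Olig2cre/DA-Cat at day 4 (5 higher and 1 lower at an unadjusted p under 0.05; median 0.069), and 1 was higher at day 15 and 0 lower (2 and 0 unadjusted; median 0.035). Rnf43, the ligase that removes Frizzleds and that R-spondins inhibit, was at 4.14, 4.34 and 4.18 in wild type and 5.80, 5.25 and 5.44 in Olig2cre/DA-Cat at day 4. It was under the background guide in wild type and over it in every Olig2cre/DA-Cat array, and differed by 1.28 ± 0.21 (SE, adjusted p = 0.00561). At day 15 it differed by 0.59 (interval 0.13 to 1.04, adjusted p = 0.178), with 4.48, 4.32 and 4.27 in wild type against 5.42, 5.02 and 4.38. Znrf3, the companion ligase, was at 8.73 ± 0.20 and 8.68 ± 0.07 (SD, n = 3 arrays each) in wild type and Olig2cre/DA-Cat at day 4, and differed by 0.13 at day 15 (adjusted p = 0.599).

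Of the Frizzleds, Fzd1 was higher at both days, by 0.39 ± 0.08 at day 4 (SE, adjusted p = 0.0242) and 0.40 ± 0.08 at day 15 (SE, adjusted p = 0.0209), and Fzd2 at day 4 by 0.32 ± 0.07 (SE, adjusted p = 0.0244). These calls were narrow: leaving out 1 array of the contrast ended that of Fzd1 at day 4 for 4 of 6 arrays (highest adjusted p = 0.114), that of Fzd1 at day 15 for 5 of 6 (highest adjusted p = 0.0956) and that of Fzd2 at day 4 for 4 of 6 (highest adjusted p = 0.119). They were also lost with same-numbered arrays of a day as a block (adjusted p = 0.0632, 0.0665 and 0.0608). That of Fzd1 at day 15 was lost with the meningeal or muscle covariate (adjusted p = 0.104 and 0.0728). It was also lost with averaged probe sets (adjusted p = 0.0815) and in the day 15 arrays alone (adjusted p = 0.103). That of Fzd2 at day 4 was lost with averaged probe sets (adjusted p = 0.141) and quantile normalization (adjusted p = 0.0527). Fzd10 differed by 0.30 (adjusted p = 0.0812) and Fzd6 by -0.23 (adjusted p = 0.119) at day 4, Lrp5 by -0.13 and Fzd8 by 0.10 at day 15, all short of the threshold; Lrp5 was under the background guide on every array. Between the days the same list had 2 genes higher and 7 lower in wild type, beside 44.9% of all genes called, and 3 higher and 8 lower in Olig2cre/DA-Cat, beside 48.1%; these shares are not read as a result about the list.

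Of 12 measured binding partners of R-spondins or Lgr receptors, 1 was higher at each day and 0 lower (4 and 0 unadjusted at either day), with medians of 0.17 and 0.14. It was Tnfrsf19 (Troy), a receptor that associates with Lgr5 and is itself a Wnt target in the gut. Its level was 8.02, 8.08 and 7.85 in wild type and 9.08, 8.77 and 8.82 in Olig2cre/DA-Cat at day 4, and 7.89, 8.02 and 8.05 against 8.44, 8.79 and 8.60 at day 15. The genotypes were apart at both days, by 0.91 ± 0.10 (SE, adjusted p = 0.000353) and 0.62 ± 0.10 (SE, adjusted p = 0.00687). The day 15 call of Tnfrsf19 was lost with the meningeal and fibroblast covariate (0.59, adjusted p = 0.0617). Glypican Gpc4 differed by 0.30 and 0.29 (adjusted p = 0.117 and 0.146) and passed as an average over both days (0.29, adjusted p = 0.0224), a call that held in 17 of 23 alternative settings. It was lost with the meningeal covariate (0.20, adjusted p = 0.177), with the muscle covariate (0.25, adjusted p = 0.0792) and without wild type replicate 1 of day 4 or Olig2cre/DA-Cat replicate 2 or 3 of day 4 or 3 of day 15 (adjusted p up to 0.0575). Others with small p were the syndecan Sdc3 at 0.20 and the scaffold Iqgap1 at 0.16 at day 4, Iqgap1 at 0.14 at day 15, and Tnfsf11, a further ligand of Lgr4, at 0.18 and 0.19, none of which passed; Tnfsf11 was under the background guide on every array.

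**Figure D4:**
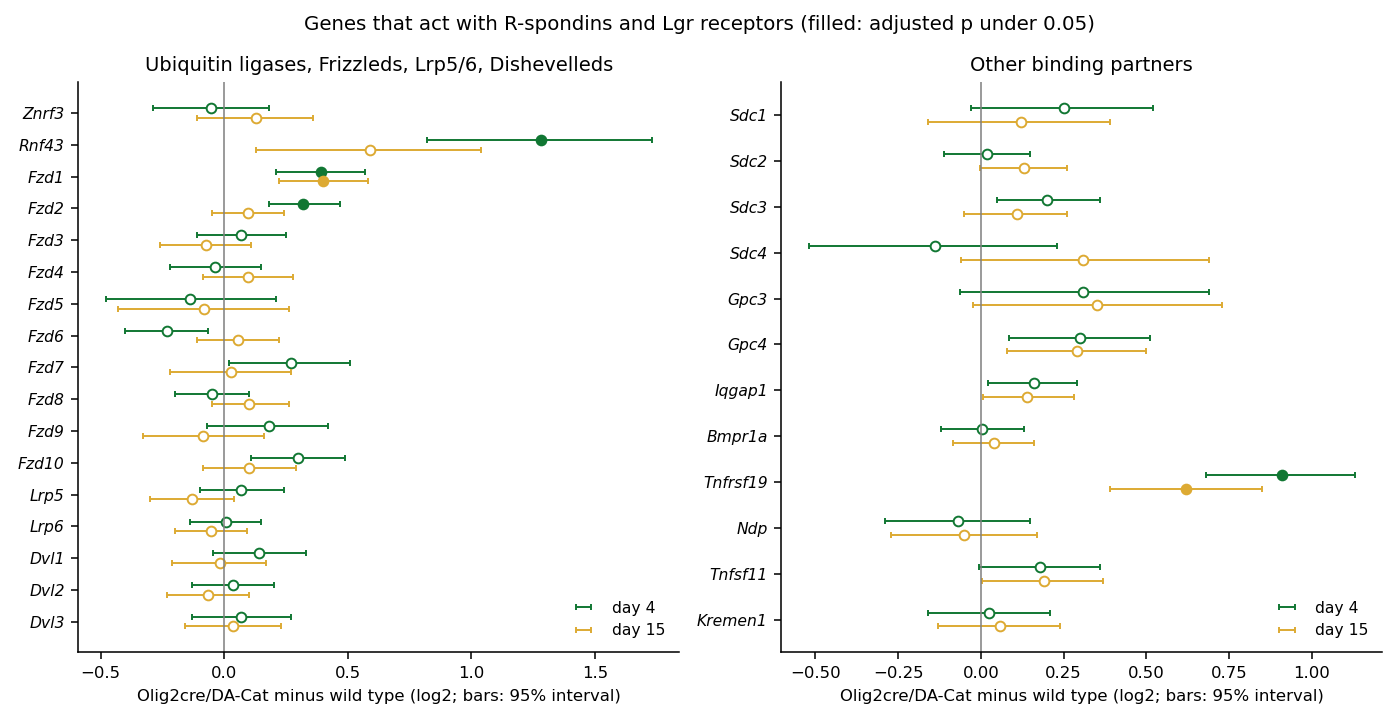
Genotype differences (log2, 95% intervals) at day 4 (green) and day 15 (yellow) of 17 genes of Wnt receptor turnover and 12 further partners of R-spondins and Lgr receptors; filled points passed an adjusted p of 0.05. Rnf43, Fzd1 and Fzd2 are filled at day 4, Fzd1 at day 15 and Tnfrsf19 at both days, and Rnf43 has the widest intervals of the left panel.

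R-spondins amplify the response to Wnt ligands and do not replace them. Of 21 Wnt ligand and export genes, 0 were higher or lower at day 4 (0 and 2 unadjusted; median -0.032), and at day 15 0 were higher and 1 was lower (0 and 1 unadjusted; median 0.015). That gene was Wls, the carrier that brings Wnt proteins to the cell surface. It was at 9.08, 8.85 and 9.12 in wild type and 8.47, 8.66 and 8.49 in Olig2cre/DA-Cat at day 15, and differed by -0.47 ± 0.09 (SE, adjusted p = 0.018). The call was lost without wild type replicate 1 or 3 or Olig2cre/DA-Cat replicate 1 or 3 (adjusted p up to 0.0801), with the muscle covariate (-0.47, adjusted p = 0.0626), in the day 15 arrays alone (-0.47, adjusted p = 0.083) and with averaged probe sets (-0.24, adjusted p = 0.108). Wnt1, Wnt8a, Wnt4 and Wnt9a had the smallest p at day 4 (-0.26, -0.23, 0.29 and 0.17), and Wnt3, Wnt7a and Wnt2 followed Wls at day 15 (-0.28, -0.18 and -0.18); none of these passed. Wnt1, Wnt2, Wnt3 and Wnt8a were under the background guide on every array, so their differences say little about those genes.

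For reference, Axin2, a feedback gene of β-catenin in most tissues, differed by 1.05 ± 0.08 at day 4 (SE, adjusted p = 1.16e-05) and 0.51 ± 0.08 at day 15 (SE, adjusted p = 0.0057). The day 15 call of Axin2 was lost with the meningeal covariate (0.45, adjusted p = 0.0666) and in the day 15 arrays alone (0.51, adjusted p = 0.0597). Of 10 measured Wnt feedback genes, 7 were higher at day 4 and 3 at day 15 (median 0.88 and 0.27), beside 1.3% and 0.616% of all genes. The list had been seen to be higher in these data before. Wif1, a secreted Wnt inhibitor (2.83 and 2.85), and Notum, an enzyme that inactivates Wnt ligands (2.09 and 1.14), passed at both days, with Wif1 under the background guide in wild type. Nkd1 (2.15), Sp5 (1.35), Lef1 (0.70) and Apcdd1 (0.63) passed at day 4; the Apcdd1 call was lost without each of the 6 day 4 arrays in turn (adjusted p up to 0.124) and with the meningeal covariate (0.60, adjusted p = 0.061). Of 6 relatives, the glycoprotein hormone and relaxin receptors with which Lgr genes share their receptor family and the thrombospondins with which R-spondins share a repeat, 0 passed at day 4 or day 15 (1 lower unadjusted at each, Fshr, median -0.059 and 0.081). Fshr was lower as an average over both days (-0.27, adjusted p = 0.0337), a call lost in 12 of 21 alternatives.

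The genes with the pattern most like that of each called member were found by the root mean square difference of mean-centred levels over the 12 arrays, as a description. Clone-like and unnamed symbols were passed over, so the genes given need not be the nearest of all genes. For Rspo3 they were Lhfp (0.089 log2), Lrrc24 (0.091) and Shc4 (0.091), where the median gene was at 0.274. For Lgr5 they were Krt222 (0.116), Lpcat4 (0.122) and Pwwp2b (0.127; median gene 0.449), all of which rose with the day and had day 15 genotype differences of 0.18 to 0.26 that did not pass. For Lgr6 they were Neurog2 (0.156), Epx (0.163) and Tom1l1 (0.167; median gene 0.366), of which Tom1l1 was higher at both days (0.49 and 0.32, adjusted p = 0.00439 and 0.0463). All of these genes were measured on the same arrays, in the same 4 groups.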

How the data were processed

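Total RNA of 12 samples was labelled for Affymetrix 3′ expression arrays, per the labels' protocols. The deposited values are on a log2 scale, as judged from the values themselves; the authors' summary method, background correction and normalization are not given in the sources used here, and the depositors' arrays have nearly equal distributions. The platform annotation pairs 34958 of 45101 probe sets with 1 gene symbol, 932 with several and 9211 with none. Each of 18194 genes was represented by its brightest probe set, by mean over the 12 arrays.

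limma 3.58.1 (R 4.3.3; lmFit, contrasts.fit and eBayes) fitted a mean for each of the 4 groups over all 12 arrays, giving 6 contrasts. Tests were two-sided, p-values were Benjamini-Hochberg adjusted over all genes, and 0.05 was the threshold; 95% intervals come from the same fit. A fit over all probe sets gave the values of the second probe sets. Precision is limited by how many arrays there are. The script was tested on simulated data.

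The members and lists were chosen with earlier results of these data known. Named genes were all 7 members, the genes of each list past the threshold in a genotype contrast with up to 4 of the smallest p, the 3 genes most like each called member (clone-like and unnamed symbols passed over), and Ctnnb1 and Olig2. Alternatives were quantile normalization, median centring, filters on dim genes, trended robust variances, array weights, other probe set rules, a replicate block (also within a day, added after seeing the data), fewer groups in the fit, muscle or meningeal covariates, and each array left out.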

Additional observations from a re-analysis of the deposited data

Results flagged for a closer look

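In 2 Wnt feedback genes the genotype difference itself differed between the days in limma's test of that difference. Nkd1 had a change of -1.85 from day 4 to day 15 (adjusted p = 0.000935). Sp5 had a change of -1.18 (adjusted p = 0.0186; -1.34 to -1.09 over the alternatives, with an adjusted p of up to 0.0727, and called in 14 of 21). With same-numbered arrays of a day as a block it was not called (adjusted p = 0.0684). The mean of Sp5 was 4.83 and 4.54 in wild type at days 4 and 15, and 4.71 at day 15 in Olig2cre/DA-Cat, all under the background guide of 5.16, and was above it only in Olig2cre/DA-Cat at day 4 (6.19), so the size of its change is not measured closely.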

How the results depend on the processing

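The number of the 7 members called at day 4 was 2, and 0 where all probe sets of a gene were averaged or where the dimmest 50% of genes were left out, a filter that kept 3 members, Rspo2, Lgr4 and Lgr5. It was 0 to 2 with 1 array left out, and 0 without wild type replicate 1 or Olig2cre/DA-Cat replicate 3 of that day. At day 15 it was 3, and 1 with the meningeal covariate, with the day 15 arrays alone and without the dimmest 50% of genes, and 2 to 3 with 1 array left out. For the average over both days it was 3, then 1 without the dimmest 50% of genes and 3 to 4 with 1 array left out. For the days in wild type it was 2, then 4 with array weights, 1 with averaged probe sets and 1 with the meningeal covariate, and 1 to 3 with 1 array left out (1 without wild type replicate 1 of day 15); in Olig2cre/DA-Cat it was 2 to 3 with 1 array left out. The share of all genes called moved as well: higher at day 4 from 1.3% to 0.297% and 0.286% without those arrays, higher at day 15 from 0.616% to 0.181% with the meningeal covariate and 0.0989% with the day 15 arrays alone, and between days in wild type from 44.9% to 48.9% with array weights, 42.7% with averaged probe sets and 32.1% with the meningeal covariate. With averaged probe sets the share of all genes higher at day 4 stayed close, at 1.36%. Without the dimmest 50% of genes the share higher rose, to 6.79% at day 4, 2.72% at day 15 and 14.6% on average. In these settings the member counts at day 4 fell while the share of all genes did not. Beyond fewer members tested under the filter and fewer arrays, the cause was not tested.

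With the replicate number as a block, the counts were 2, 3 and 3 for the genotype at day 4, day 15 and on average, 2 and 2 for the days and 0 for the change of the genotype difference, as without it. Of 18 pairs of arrays with the same number, 5 had correlated deviations over 0.1 (-0.343 to 0.297). Of the 6 pairs within a day 4 did (0.015 to 0.297). Arrays of unlike number and genotype within a day lay between -0.307 and 0.079. Deviations from a group mean cancel within the group, so these values depend on those of the same number and are no separate evidence. Between days, arrays of unlike number reached 0.365 (wild type replicate 2 of day 4 with Olig2cre/DA-Cat replicate 1 of day 15). The labels do not say whether a number marks a shared litter or batch, so the main fit had no block, and shared handling within a day was not tested. A block of same-numbered arrays within a day, added after seeing the data, left 2, 3, 3 and 0 members called for the genotype at day 4, day 15, on average and its change. With that block the share of all genes called higher went from 1.3% to 0.753% at day 4 and from 0.616% to 0.286% at day 15.

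Some differences that were not called changed sign. With averaged probe sets Rspo2 was at -0.072 at day 4, -0.013 on average and 0.009 between days in Olig2cre/DA-Cat, Lgr4 at -0.011 at day 15, and Lgr6 at 0.015 between days in Olig2cre/DA-Cat and 0.096 for the change of its genotype difference. Quantile normalization gave -0.047 for Rspo2 and 0.012 for Rspo4 at day 4 and -0.0092 for the change in Rspo1. Array weights gave -0.032 for Rspo2 at day 4 and 0.0046 for the change in Lgr6. The change in Rspo3 was -0.0028 with centred arrays, -0.022 with the meningeal and -0.013 with the muscle covariate. The muscle covariate gave -0.024 for Rspo2 at day 4, and the meningeal covariate -0.023 for Rspo4 on average and -0.025 for Lgr4 at day 15. With 1 array left out, Rspo1 ranged from -0.19 to 0.031 at day 4, from -0.11 to 0.053 at day 15 and from -0.10 to 0.005 on average, and Rspo4 from -0.17 to 0.062, from -0.02 to 0.20 and from -0.029 to 0.086. Rspo2 ranged from -0.045 to 0.055 at day 4 and from -0.20 to 0.023 between days in Olig2cre/DA-Cat. The change of the genotype difference ranged from -0.052 to 0.17 for Rspo1, -0.033 to 0.078 for Rspo3, -0.16 to 0.012 for Lgr4 and -0.20 to 0.014 for Lgr6. Signals near background limit what Rspo1, Rspo4 and the dimmer probe sets can show.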
